A study of Mus musculus with 4 samples.

Results

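A set of 10 genes of de novo lipogenesis, the synthesis of fatty acids from sugar-derived carbon, were followed in liver RNA sequencing. They were Srebf1, Mlxipl, Thrsp, Acly, Me1, Acaca, Acacb, Fasn, Elovl6 and Scd1, 10 of the 24346 gene symbols listed, found by their symbols. All 10 passed the filter on low values used for the tests, for which the 4 libraries had to average 0.5 FPKM or more. FPKM corrects the fragments counted for a gene for the length of its exons and for the depth of sequencing. The genes were chosen with the difference between the groups known, so their levels in both groups are given as a description and no test is drawn on them.

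Liver came from male C57BL/6 mice that were 8 weeks old at the start of the diet. For 3 weeks they were fed a diet rich in fat, cholesterol and sucrose with the bile salt cholate. This NASH diet induces steatohepatitis. The control group (n = 2 libraries) received this diet alone. The 7KC group (n = 2 libraries) received it with 7-ketocholesterol (7KC), an oxidized derivative of cholesterol, so both groups carried the fatty liver diet and no group on normal chow was analysed here. The labels do not say whether the 2 libraries of a group came from separate mice, so the spread between them may be partly technical.

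Cytosolic citrate is cleaved by Acly to acetyl-CoA, which Acaca and Acacb carboxylate to malonyl-CoA. Fasn builds palmitate from malonyl-CoA with NADPH, part of which Me1 supplies. Elovl6 lengthens the palmitate and Scd1 introduces a double bond. In liver the pathway is driven by insulin through SREBP-1c, a product of Srebf1, and by sugar through ChREBP, the product of Mlxipl. Thrsp (Spot14) is a small nuclear and cytosolic protein induced by thyroid hormone, sugar and feeding that promotes fatty acid synthesis.

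The effective depth of the libraries, estimated from the steps between their low values, was 13640000 to 16980000 reads. At the lowest level of any of the 10 genes, Acacb in control replicate 2, about 593 reads stood behind the value, so that the counting error was 4.11% of it. The summed FPKM was 685028 and 671235 in control and 619828 and 557138 in 7KC libraries. Hepatocyte markers had lower and leukocyte markers higher estimates in the 7KC group, and their values stand beside the results they touch. In bulk liver, fewer hepatocytes and less RNA per hepatocyte cannot be told apart.

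The sequences just upstream of RefSeq transcript starts are shown for the 3 regulators and for Acly and Fasn, the enzymes with the lowest estimates in the 7KC group. RefSeq windows on GRCm38.p6, the build of the files, matched 9 of the 10 genes with 13 start sites. Scd1 was not matched. Capitals mark every match, on either strand, to the E-box CACGTG, the CCAAT box CCAAT, the GC box GGGCGG, the TATA box TATAAA or the sterol element core TCACNCCAC. Where a gene had several windows, the one with the most matched bases is shown. Each stretch is printed 5′ to 3′ on the strand of its gene.
Thrsp, chr7:97417731-97417800, minus strand: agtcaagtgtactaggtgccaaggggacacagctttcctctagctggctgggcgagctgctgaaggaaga
Srebf1, chr11:60210472-60210721, minus strand: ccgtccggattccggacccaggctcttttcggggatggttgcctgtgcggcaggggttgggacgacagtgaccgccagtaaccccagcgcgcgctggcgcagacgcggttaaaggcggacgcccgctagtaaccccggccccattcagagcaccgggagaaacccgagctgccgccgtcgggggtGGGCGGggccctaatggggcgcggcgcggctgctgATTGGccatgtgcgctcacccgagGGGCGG
Mlxipl, chr5:135089640-135089889, plus strand: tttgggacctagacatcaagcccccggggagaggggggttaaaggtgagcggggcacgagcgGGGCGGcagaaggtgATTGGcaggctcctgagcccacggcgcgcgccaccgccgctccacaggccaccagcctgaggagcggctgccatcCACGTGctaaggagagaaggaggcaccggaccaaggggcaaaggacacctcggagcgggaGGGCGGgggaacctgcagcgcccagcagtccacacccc
Acly, chr11:100528001-100528250, minus strand: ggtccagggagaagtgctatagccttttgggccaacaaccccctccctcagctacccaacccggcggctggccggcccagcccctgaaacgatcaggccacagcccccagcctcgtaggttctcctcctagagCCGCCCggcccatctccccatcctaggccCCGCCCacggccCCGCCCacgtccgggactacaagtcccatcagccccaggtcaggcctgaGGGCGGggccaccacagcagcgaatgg
Fasn, chr11:120824548-120824797, minus strand: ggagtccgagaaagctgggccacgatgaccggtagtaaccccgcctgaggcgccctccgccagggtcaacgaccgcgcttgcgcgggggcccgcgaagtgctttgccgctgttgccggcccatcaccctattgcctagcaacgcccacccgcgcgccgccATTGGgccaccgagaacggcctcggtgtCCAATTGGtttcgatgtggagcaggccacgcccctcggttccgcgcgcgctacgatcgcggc

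The Thrsp window is cut to 70 bases because the other 180 lie in an exon of GENCODE release M21, whose start for this gene is upstream of the RefSeq start. A pair of matches to the CCAAT box lie in that part, at 52 and 79 bases before the RefSeq start. CCAAT is bound by NF-Y, a known partner of SREBP proteins at lipogenic promoters. It was matched in the 250 bases upstream of 6 of the 9 genes (Acacb, Fasn, Me1, Mlxipl, Srebf1 and Thrsp), or 7 of their 13 windows, against 33.8% of all 32851 windows of this length. The Fasn window held 3 matches, of which the pair at 59 and 62 bases overlapped on opposite strands. The GC box was matched in 4 of the 9 genes (Acly, Me1, Mlxipl and Srebf1), or 5 of the 13 windows, and in 32.7% of all windows, and Acly held 4 such matches. The E-box, a palindrome, was matched in Mlxipl only, 98 bases before its start, and in 6.02% of all windows. The sterol element core was also matched in Mlxipl only, in its other window, and in 1.05% of all windows. A TATA box was matched in Acacb only, 34 bases before the start, and in 12.4% of all windows. Of the 13 windows, 6 lie inside the gene bodies that GENCODE gives: those of Acaca and Acacb, the Srebf1 window shown, whose RefSeq start is 12110 bases downstream of the GENCODE start of the gene, 1 other of Srebf1, the Mlxipl window with the sterol element core, and the Me1 window with the CCAAT box. A match is a run of letters and not an observed binding site.

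The 10 genes spanned a wide range of levels. Scd1 was the most abundant by far, with 4085 ± 524 FPKM (SD, n = 2) in the control group, and Acacb the least, with 6.97 ± 2.94 FPKM. Between them in the control group stood Thrsp, Mlxipl, Srebf1, Acly, Fasn, Elovl6, Me1 and Acaca, in this order. The libraries of Mlxipl and Srebf1 overlapped, as did those of Fasn with Elovl6 and Elovl6 with Me1, while the other neighbours were separate. In the 7KC group the order differed only in that Fasn came after Elovl6 and Me1. There the libraries of Acly overlapped with those of Elovl6, Elovl6 with Me1 and Me1 with Fasn, while the other neighbours were separate. FPKM is scaled by length, so these levels can be set beside each other.

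**Figure D1:**
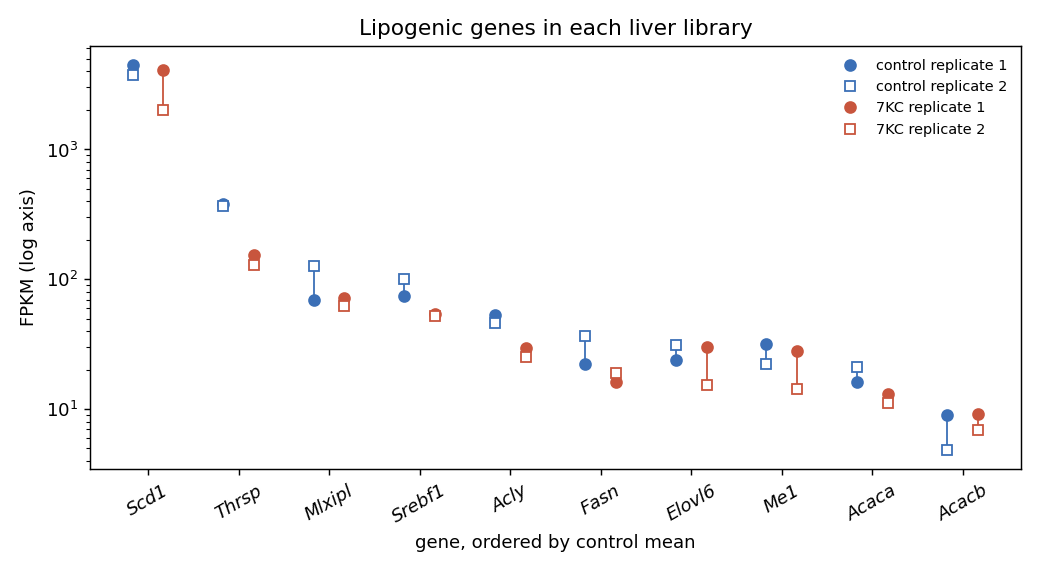
FPKM of the 10 lipogenic genes (log axis) in each of the 4 libraries, genes ordered by the control mean, circles for replicate 1 and squares for replicate 2, with a line joining the replicates of a group. The points of Thrsp, Srebf1, Acly, Acaca and Fasn do not overlap between the groups, while those of Mlxipl, Elovl6, Me1, Scd1 and Acacb do.

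Among the 10 genes, 9 had a lower estimate in the 7KC group and 1, Acacb, a higher one. On the deposited scale 53.9% of all tested genes had a lower estimate. The 9 to 1 split held with a common sum for all libraries and with quantile normalization. Me1 and Elovl6 turned higher relative to hepatocyte markers. The median log2 change, as log2(FPKM + 0.5) of the 7KC group minus the control group, was -0.55, against -0.03 over all 12299 genes tested. Both 7KC libraries lay below both control libraries in 5 of the 10 (Thrsp, Acly, Fasn, Srebf1 and Acaca), a pattern that 27.4% of all tested genes showed in this direction. None lay above, against 25.1% of all tested genes. Thrsp was the 1 gene of the 10 that lay below both controls with a log2 change of -1 or less, as did 0.211% of all tested genes. These counts describe genes picked from this contrast.

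Gene positions are those of GENCODE M21 on GRCm38 (mm10). Of the regulators, Thrsp (chromosome 7, 97412938 to 97417730, minus strand) differed most. It was at 383 and 369 FPKM in control replicates 1 and 2 and at 154 and 129 FPKM in 7KC replicates 1 and 2. The control libraries were nearly equal, and both 7KC libraries were far below them. The 7KC mean was 37.6% of the control mean, a log2 change of -1.41 (SE 0.14). From any control library to any 7KC library the level was 58.3% to 66.3% lower. Only 0.179% of the tested genes had a lower log2 change.

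Srebf1 (chromosome 11, 60199089 to 60222581, minus strand) encodes SREBP-1, the sterol element binding factor that switches on the enzymes of the pathway. It was at 74.1 and 101 FPKM in control and at 54.5 and 52.5 FPKM in 7KC libraries. The 7KC libraries were close to each other and below the controls, at 61.2% of the control mean, a log2 change of -0.69 (SE 0.17), and -0.47 without control replicate 2. FPKM per symbol does not separate its 1a and 1c transcripts.

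Mlxipl (chromosome 5, 135089890 to 135138382, plus strand) encodes ChREBP, the sugar-responsive factor. It was at 69.7 and 126 FPKM in control and at 72.1 and 62.7 FPKM in 7KC libraries. Control replicate 2 stood apart, and control replicate 1 lay between the 7KC libraries. Its log2 change of -0.48 (SE 0.29) therefore rested on 1 control library: it was -0.05 without control replicate 2.

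Acly (chromosome 11, 100476353 to 100528000, minus strand) makes cytosolic acetyl-CoA. It was at 53.6 and 46.2 FPKM in control and at 29.5 and 25.3 FPKM in 7KC libraries. The groups were well separated, with the 7KC mean at 54.9% of the control mean, a log2 change of -0.85 (SE 0.14). After Thrsp this was the lowest estimate of the 10 genes.

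Me1, the cytosolic malic enzyme (chromosome 9, 86581371 to 86695953, minus strand), measured 31.9 and 22.3 FPKM in control and 28.0 and 14.3 FPKM in 7KC libraries. The groups overlapped, because 7KC replicate 1 was above control replicate 2. The log2 change was -0.40 (SE 0.35), and 0.072 without 7KC replicate 2.

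The 2 acetyl-CoA carboxylases did not share a direction on the deposited scale. Acaca (chromosome 11, 84129672 to 84401651, plus strand), the cytosolic form that feeds fatty acid synthesis, was at 16.3 and 21.3 FPKM in control and at 13.1 and 11.3 FPKM in 7KC libraries, a log2 change of -0.60 (SE 0.17) without overlap. Acacb (chromosome 5, 114146535 to 114250761, plus strand), the mitochondrial form whose malonyl-CoA restrains fatty acid oxidation, was at 9.05 and 4.89 FPKM in control and at 9.17 and 6.89 FPKM in 7KC libraries. Control replicate 2 was lowest, and the log2 change of 0.24 (SE 0.30) turned to -0.18 without it.

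Fasn (chromosome 11, 120805846 to 120824547, minus strand), the fatty acid synthase, was at 22.5 and 36.6 FPKM in control and at 16.2 and 19.03 FPKM in 7KC libraries. Both 7KC libraries lay below both controls, by a margin of 15.3% at the closest pair. The log2 change was -0.69 (SE 0.25), and -0.35 without control replicate 2. After rescaling every library to a common sum, the Fasn libraries overlapped and the other 4 genes stayed without overlap. The share of all tested genes without overlap was not computed after that rescaling.

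Elovl6 and Scd1, which modify the finished palmitate, were set apart by 7KC replicate 2. Elovl6 (chromosome 3, 129532355 to 129638495, plus strand) measured 24.1 and 31.4 FPKM in control and 30.2 and 15.5 FPKM in 7KC libraries. Scd1 (chromosome 19, 44394455 to 44407879, minus strand) measured 4456 and 3715 FPKM in control and 4082 and 2014 FPKM in 7KC libraries. In both genes 7KC replicate 1 lay between the controls and 7KC replicate 2 was far below all other libraries. The log2 changes were -0.34 (SE 0.33) and -0.50 (SE 0.37), and without 7KC replicate 2 they were 0.13 and 0.0047.

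The difference between the replicates of a group was measured apart from the diets. In the median of the 10 genes, control replicates differed by 0.41 on the log2 scale and 7KC replicates by 0.24. Over the 7173 genes that averaged 5 FPKM or more these medians were 0.14 and 0.15. Thrsp was the steadiest of the 10 between the control libraries, with a log2 difference of -0.06 (replicate 2 minus 1). Mlxipl (0.85), Fasn (0.69), Srebf1 (0.44), Acaca (0.38) and Elovl6 (0.37) were higher in control replicate 2, and Acacb (-0.83), Me1 (-0.51), Scd1 (-0.26) and Acly (-0.21) were lower in it. In the 7KC group replicate 2 was lower in 9 of the 10, most in Scd1 (-1.02), Elovl6 (-0.94) and Me1 (-0.94), and Fasn (0.23) was higher. That library was also lower in the geometric mean of 16 hepatocyte markers, at 1520 FPKM against 1829 FPKM in 7KC replicate 1. The part of this shift in the lipogenic differences was not tested.

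**Figure D2:**
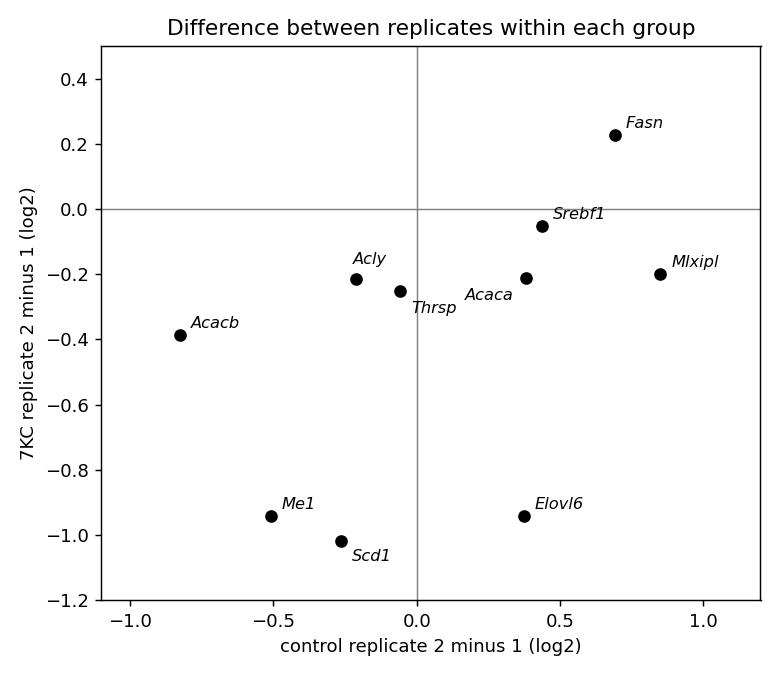
Log2 difference between replicate 2 and replicate 1 of each lipogenic gene in the control group (x axis) and in the 7KC group (y axis), on log2(FPKM + 0.5). Scd1, Elovl6 and Me1 sit near -1 on the y axis, and Mlxipl and Acacb lie at opposite ends of the x axis. Thrsp lies at -0.06 on the x axis and -0.25 on the y axis, and Acly at -0.21 on both.

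Ratios of 2 genes within a library do not depend on how that library was scaled. The ratio of Thrsp to Fasn was 17.1 and 10.1 in control and 9.51 and 6.78 in 7KC libraries, so Thrsp was lower also relative to Fasn, with a narrow gap between control replicate 2 and 7KC replicate 1. The ratio of Acacb to Acaca was 0.557 and 0.229 in control and 0.698 and 0.612 in 7KC libraries, higher in the 7KC group without overlap. The ratio of Srebf1 to Srebf2, whose product controls cholesterol synthesis, was 10.3 and 15.6 in control and 7.22 and 6.51 in 7KC libraries. Srebf2 itself was at 7.19 and 6.46 FPKM in control and at 7.55 and 8.05 FPKM in 7KC libraries (limma adjusted p 0.479).

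The ratio of Scd1 to Scd2, a desaturase that hepatocytes of adult mice make little of, was 1313 and 1248 in control and 834 and 248 in 7KC libraries. It was lower in both 7KC libraries, which were far from each other. Scd2 itself was at 3.39 and 2.98 FPKM in control and at 4.89 and 8.13 FPKM in 7KC libraries. The part of the higher leukocyte markers of these libraries in this ratio was not tested. Scd1 and its neighbours on chromosome 19 share sequence and how shared reads were assigned is not given in the sources used here, so the low level of Scd2 is uncertain. Scd3 and Scd4 reached at most 0.0667 FPKM. The ratios of Acacb to Fasn, Elovl6 to Scd1 and Thrsp to Mid1ip1 overlapped between the groups. Elovl6 to Scd1 was 0.00740 and 0.00768 in the 7KC libraries, so the low values of both genes in 7KC replicate 2 went in parallel.

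**Figure D3:**
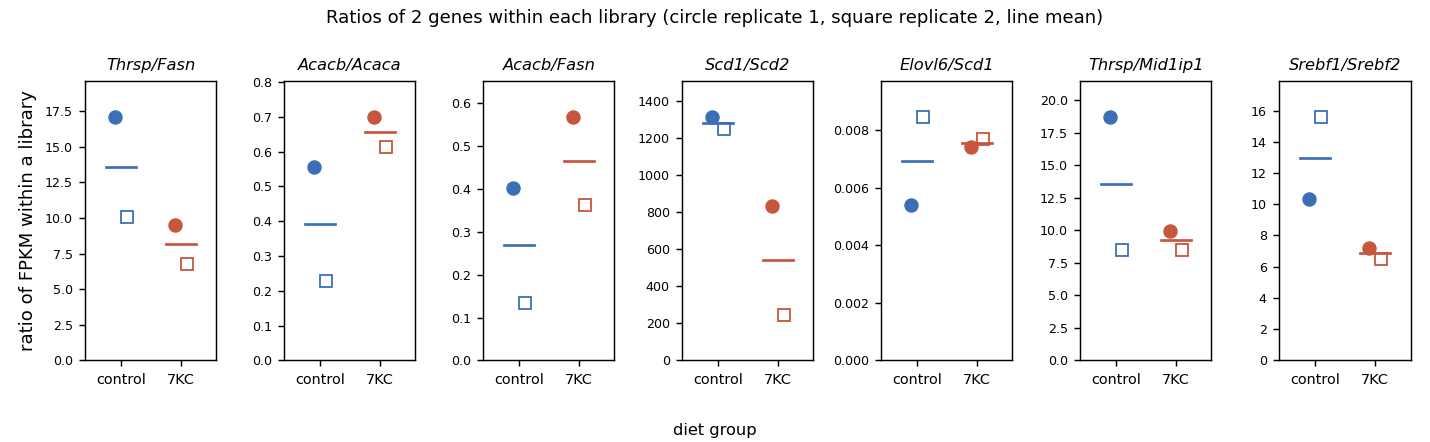
Ratio of the FPKM of 2 genes within each library, 1 panel per ratio with its y axis from 0, circles for replicate 1, squares for replicate 2 and a line for the group mean. Thrsp/Fasn, Scd1/Scd2 and Srebf1/Srebf2 are lower and Acacb/Acaca is higher in both 7KC libraries, and the other 3 ratios overlap.

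Hepatocytes carry the lipogenic pathway in liver, and their markers also had lower estimates in the 7KC group. All 16 hepatocyte markers, among them Alb, Ttr, Hnf4a and Cps1, had a lower estimate on the deposited scale (15 with libraries brought to a common sum, where Apob turned, and 14 with quantile normalization, where Alb and Apob turned), with a median log2 change of -0.50 and a range of -0.71 to -0.12. Both 7KC libraries lay below both controls in 13 of the 16, against 27.4% of all tested genes. Their summed level was 94128 and 82977 FPKM in control and 69570.5 and 52869.6 FPKM in 7KC libraries, none was at 0, and 0 of 16 passed the limma test over all genes (Benjamini-Hochberg adjusted p under 0.05), with 5 lower at an unadjusted p under 0.05, as were 5.81% of all tested genes. Thrsp and Acly were the 2 lipogenic genes with a log2 change below the lowest of the hepatocyte markers, and the other 8 were not below it.

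Relative to the geometric mean of these 16 markers, a scale chosen after seeing the data, 2 of the 10 genes were below and 1 above both controls. Shares of all tested genes without overlap were not computed on this scale. Those of 27.4% below and 25.1% above belong to the deposited scale. Thrsp was at 321 and 320 in control and at 165 and 166 in 7KC libraries (FPKM on the marker scale), a log2 change of -0.95, and the replicates of each group nearly coincided. Acly was at 44.8 and 40.2 in control and at 31.5 and 32.6 in 7KC libraries, a log2 change of -0.40 without overlap. Acacb was at 7.58 and 4.25 in control and at 9.80 and 8.87 in 7KC libraries, a log2 change of 0.67, now above both controls. The remaining 7 genes overlapped between the groups, and Fasn, Srebf1 and Acaca were at -0.24, -0.23 and -0.15. On this scale the median of all tested genes moved from -0.03 to 0.39, and Elovl6 (0.11) and Me1 (0.05) turned to a higher estimate.

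**Figure D4:**
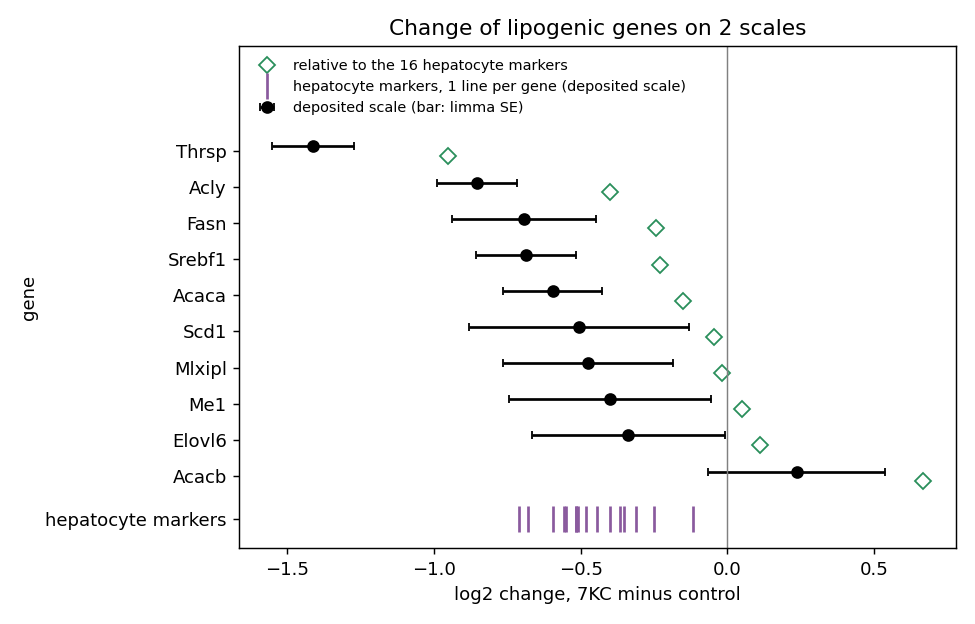
Log2 change (7KC minus control) of each lipogenic gene on the deposited scale (black points, bars show the limma SE) and relative to the geometric mean of the 16 hepatocyte markers (open diamonds), with the log2 changes of the markers as lines in the bottom row. On the deposited scale Thrsp at -1.41 and Acly at -0.85 lie left of every marker, and on the marker scale most of the genes lie near 0.

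Leukocyte markers had higher estimates in the 7KC group. Of 16, 15 were tested and 1 was below the filter. Of the 15, 14 had a higher estimate (all 15 with a common sum or quantile normalization, where Clec4f turned) with a median log2 change of 1.23, and both 7KC libraries lay above both controls in 11, against 25.1% of all tested genes. Their summed level was 739 and 502 FPKM in control and 1297 and 1984 FPKM in 7KC libraries, none was at 0, and 0 of 15 passed the limma test, with 11 higher at an unadjusted p under 0.05, as were 12% of all tested genes. With a common sum 6 of the 15 passed, and 12 relative to hepatocyte markers. Clec4f, a marker of resident Kupffer cells, had the lowest estimate of them (-0.03). Adipocytes also make fatty acids. Of their 9 listed markers, 5 passed the filter on low values, 2 with a higher and 3 with a lower estimate. Fabp4, Cfd and Adrb3 were highest in control replicate 2 (37.7, 3.24 and 2.98 FPKM), and Lipe and Pparg in 7KC replicate 1 (10.5 and 3.72 FPKM). The other markers were at or near 0. Lep was listed at 0 in every library, and Adipoq, Retn and Plin1 were listed at 0 in all but control replicate 2, where they were at 0.353, 0.391 and 0.0873 FPKM. The summed level of the 9 adipocyte markers was 41.8 and 54.7 FPKM in control and 39.0 and 45.5 FPKM in 7KC libraries. The part of the leukocyte and hepatocyte shifts, and of any adipocyte RNA, in the lipogenic values was not tested.

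The comparison was then extended to 118 genes around the pathway in 10 lists. Of these, 107 were tested and none passed the threshold in the fit over all genes (limma), where 0.48% of all tested genes passed on the higher side and 0.0244% on the lower side. At an unadjusted p under 0.05 there were 6 higher and 23 lower, and these shares over all tested genes were 12% and 5.81%. That balance turned with the scale: there were 15 higher and 8 lower with a common sum (2350 and 138 over all genes), and 28 higher and 4 lower relative to hepatocyte markers (4628 and 29 over all genes). Both 7KC libraries lay below both controls in 49 of the 107 and above them in 15, against 27.4% and 25.1% of all tested genes. The values that follow are therefore estimates that did not pass. The lists' directions depended on the scale: with every library brought to a common sum, which raised the median of all genes from -0.03 to 0.16, the medians of 5 lists turned above 0 (SREBP processing, desaturases and elongases, malonyl-CoA turnover, triglyceride assembly, and fasting and feeding), and relative to hepatocyte markers only the ChREBP targets, at -0.17, kept a median below 0. The extremes of each list named here were the same genes with a common sum. With quantile normalization the highest became Srebf2 in SREBP processing, Acsl1 in triglyceride assembly and Cpt1a in fasting and feeding. The lowest of transcriptional and hormonal control became Ppargc1b, and malonyl-CoA turnover ran from Prkag2 to Cpt1a. Relative to hepatocyte markers Arrdc4 became the highest of the ChREBP targets.

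Among the genes that process SREBP, with a median log2 change of -0.18 (6 tested), Insig1, which holds SREBP in the endoplasmic reticulum, had the lowest estimate at -0.63 and the protease gene Mbtps2 the highest at 0.26. Insig1 was at 48.9 and 25.4 FPKM in control and at 24.6 and 20.8 FPKM in 7KC libraries. Among 15 genes of transcriptional and hormonal control (median -0.20) the extremes were Usf1, at 0.24, and Mid1ip1, at -0.94 (limma adjusted p 0.251). Mid1ip1 is the close relative of Thrsp and helps acetyl-CoA carboxylase to form filaments. It was at 20.5 and 43.4 FPKM in control and at 15.4 and 15.2 FPKM in 7KC libraries, so its control replicates differed more than those of Thrsp.

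Genes that supply carbon and NADPH went in both directions (13 tested, median -0.26, 5 higher and 8 lower). G6pdx, the first enzyme of the pentose phosphate pathway and a source of NADPH like Me1, had the highest at 0.94 (SE 0.19, limma adjusted p 0.0966), with 5.18 and 3.98 FPKM in control and 8.05 and 10.4 FPKM in 7KC libraries. Of the 2, G6pdx was higher in both 7KC libraries, and Me1 overlapped between the groups. Leukocytes also express G6pdx. Leukocyte markers had higher estimates in the same libraries, and their part in this value was not tested.

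Among the other desaturases and elongases (15 tested, median -0.10) Scd2 had the highest estimate at 0.89 (limma adjusted p 0.167). Elovl3, an elongase of saturated chains, had the lowest at -1.25 (SE 0.45, limma adjusted p 0.244), with 29.7 and 76.9 FPKM in control and 22.7 and 17.3 FPKM in 7KC libraries. The genes of malonyl-CoA turnover and AMPK (11 tested, median -0.14) held narrower estimates, from Acat1 at -0.43 to Prkaa1 at 0.26. In triglyceride assembly (16 tested, median -0.17) they ran from Lpin1, a phosphatidate phosphatase, at -1.19 (limma adjusted p 0.246) to the acyltransferase Gpat3, listed as Agpat9, at 0.60 (limma adjusted p 0.217). Lpin1 was at 101 and 176 FPKM in control and at 84.9 and 39.9 FPKM in 7KC libraries.

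Targets of ChREBP had the lowest median of the 10 lists, -0.63 over 10 tested genes. Of these, 9 had a lower estimate, against 53.9% of all tested genes on the deposited scale. With a common sum, where Arrdc4 turned, 8 were lower, and relative to hepatocyte markers 6 were. Rgs16, a regulator of G-protein signaling that sugar induces in hepatocytes, had the lowest estimate of all 107 genes at -1.63 (SE 0.25, limma adjusted p 0.0606). It was at 150 and 201 FPKM in control and at 45.5 and 68.7 FPKM in 7KC libraries, without overlap. Fgf21 had the highest of the list at 0.09. The list shares members with other lists, among them Pklr and Khk with the supply list, G6pc and Fgf21 with the feeding list and Gpd1 with triglyceride assembly.

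The last 3 lists covered conditions that Thrsp is known to follow. Thyroid hormone response genes (6 tested, median -0.32) ran from the transporter gene Slc16a10 at -0.44 to Dio1, a deiodinase and a classic thyroid hormone target, at 0.46. Dio1 was at 19.4 and 43.5 FPKM in control and at 39.1 and 41.6 FPKM in 7KC libraries, and only control replicate 1 was low. Genes of fasting and feeding (12 tested, median -0.16) ran from G6pc, the glucose-6-phosphatase, at -1.05 (limma adjusted p 0.109) to Pdk4 at 0.35. Clock genes and their outputs (14 tested, median -0.34) ran from Nr1d1 at -0.64 (limma adjusted p 0.242) to Per1 at 0.03. Of the 14, 13 had a lower estimate, but 11 with a common sum and only 2 relative to hepatocyte markers. Feeding state and the hour of sampling were not given in the labels, and their part in the lipogenic values was not tested.

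**Figure D5:**
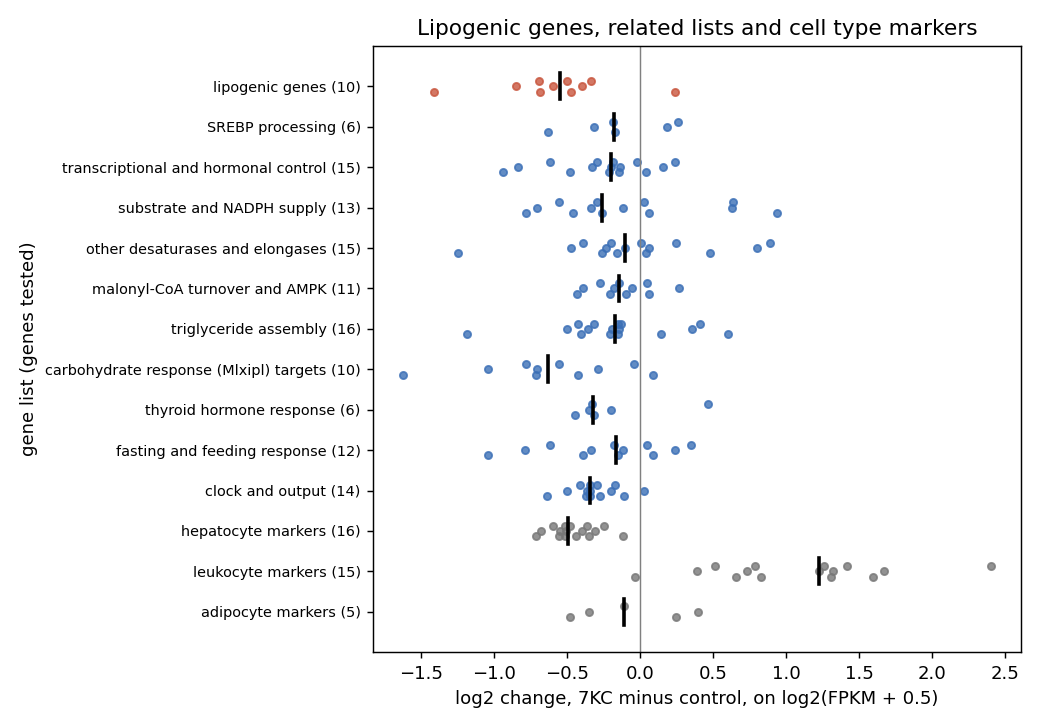
Log2 change (7KC minus control) on log2(FPKM + 0.5) of each tested gene in the lipogenic genes (red), the 10 related lists (blue) and the 3 lists of cell type markers (grey), with a bar at each median. The medians are -0.55 for the lipogenic genes, -0.63 for ChREBP targets, -0.50 for hepatocyte markers and 1.23 for leukocyte markers, and those of the other related lists lie between -0.34 and -0.10.

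Finally, the genes with a pattern nearest to that of Thrsp were listed. The measure was the Euclidean distance over the 4 libraries between log2(FPKM + 0.5) values centred on each gene's own mean, among 7172 other genes that averaged 5 FPKM or more. The nearest was Igfbp3, a binding protein of insulin-like growth factors, at a distance of 0.456. It was followed by Hamp2 (0.490), a hepcidin gene, Fdps (0.521), an enzyme of sterol synthesis, Hsph1 (0.523), a heat shock protein, and Fam134b (0.531), a receptor for turnover of the endoplasmic reticulum. Igfbp3 was at 19.5 and 19.8 FPKM in control and at 10.1 and 9.45 FPKM in 7KC libraries, a log2 change of -0.97. None of the 10 lipogenic genes other than Thrsp was among these 5. With 4 libraries this likeness is a description of level patterns only.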

How the data were processed

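Liver RNA of 2 control and 2 7KC libraries was measured with stranded mRNA libraries read as single ends. The values are FPKM, deposited by the authors as 1 value per symbol and library, made per the labels' processing notes with TopHat2 2.1.1, Bowtie2 2.2.8, SAMtools 0.1.18 and Cuffdiff 2.2.1 on mm10. The gene annotation, the treatment of shared reads and the strand setting are not given in the sources used here. Median-ratio factors of the deposited values were 1.001 to 1.003 over 14511 genes, so the libraries were already level by that measure although their sums differed, and rescaling by the median ratio repeats the deposited scale.

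Groups came from the sample titles. The 12299 of 24346 genes that averaged 0.5 FPKM or more entered limma 3.58.1 (R 4.3.3) on log2(FPKM + 0.5), with lmFit and eBayes with a trend, the group as the only term and Benjamini-Hochberg adjustment over all tested genes. The fit had 2 residual and 3.27 prior degrees of freedom. Log2 changes on this scale understate those of low genes. The fit was tested on simulated data, in which 98 genes were changed by 1 on the log2 scale and 99 by 2. Of these, 34.7% and 89.9% passed the threshold in the right direction, with 8 false calls in 12353 genes fitted. A gene that did not pass is therefore not shown to be unchanged. The effective depth was estimated as the number of reads at which most low values of genes with a single transcript in GENCODE M21 became whole reads: 70.0% to 72.1% of 556 to 618 values per library lay within 0.1 of a whole read.

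The lipogenic genes and all lists were chosen with earlier results of these data known. Named genes were all lipogenic genes, the genes with the highest and lowest estimate in each related list and any past the threshold, the partners of the ratios, and the 5 genes nearest to Thrsp. A gene that this rule would name is not reported here. Of the list symbols, Gpat3 and Gpat4 were matched through older symbols. Alternatives changed the pseudocount, filter, scaling, variance trend, replicate block and libraries.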

Additional observations from a re-analysis of the deposited data

How the results depend on the processing

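Of 100 values of single lipogenic genes under the alternatives, 85 moved by less than the spread between replicates, 9 moved by more in the same direction and 6 reversed. With 2 libraries per group, leaving out 1 cannot move an estimate by more than this spread, so those values could only stay or reverse. The pseudocount and median-ratio settings hardly change the values. The count of 85 is therefore largely fixed in advance and does not measure robustness. Reversed were Me1 (0.049) and Elovl6 (0.11) when scaled to hepatocyte markers, Me1 (0.072), Elovl6 (0.13) and Scd1 (0.0047) without 7KC replicate 2, and Acacb (-0.18) without control replicate 2. With 1 library left out, the log2 change of Me1 ran from -0.87 to 0.072, of Elovl6 from -0.81 to 0.13, of Scd1 from -1.01 to 0.0047 and of Acacb from -0.18 to 0.65. The cause was not tested. Thrsp kept a log2 change between -1.54 and -0.95 in every alternative run, the last when scaled to hepatocyte markers. When scaled to hepatocyte markers, the median of the 10 genes was -0.10 and 2 lay below both controls. The share of all tested genes below both controls was not computed on that scale. With 1 library left out the median of the 10 ranged from -0.77 without control replicate 1 to -0.43 without 7KC replicate 2. With a common sum for all libraries, the median of all genes moved to 0.16 and that of the 10 genes to -0.35, and Fasn overlapped.

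Against 59 genes higher and 3 lower over all genes with limma, 398 were higher and 7 lower with a common sum, 111 higher with a pseudocount of 1 FPKM, 39 higher and 1 lower without the trend, 0 and 1 with all genes kept (1792 and 842 at an unadjusted p under 0.05), and 1965 higher and 7 lower when scaled to hepatocyte markers. Leaving out a library gave 2 to 389 higher and 1 to 52 lower: 389 and 52 when control replicate 1 was omitted, 19 and 4 for control replicate 2, 4 and 1 for 7KC replicate 1, and 2 and 2 for 7KC replicate 2. With all 4 libraries kept and no block, related genes past the threshold numbered 0, but 1 (Pgd, higher) with a common sum. They numbered 15 when scaled to hepatocyte markers. Of these 15, 14 were higher and 1, Rgs16, was lower. With a library left out, the number of related genes past the threshold did not stay at 0 in every run. In those runs the group of 1 library was assumed to vary like the other.

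With the replicate number as a block 0 genes were higher and 0 lower (1269 and 582 at an unadjusted p under 0.05). Deviations of same-numbered libraries had a correlation of -0.14 over genes. This single value from 4 libraries cannot decide whether the numbers pair libraries. A crossed pairing, added after seeing the data, gave 551 higher, 37 lower and 4 related genes (1 higher and 3 lower).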
